A study of Caenorhabditis elegans with 6 samples.

Results

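Transcripts of the Wnt ligands and their receptors were followed across 6 RNA sequencing libraries of sorted Caenorhabditis elegans embryonic cells. The members are the 10 genes whose name in the table is lin-44, egl-20, cwn-1, cwn-2 or mom-2 (the 5 Wnt ligands), mig-1, lin-17, mom-5 or cfz-2 (the 4 Frizzled receptors) and cam-1 (the 1 Ror-type receptor tyrosine kinase). All 10 were found among 47063 gene rows, and all 10 passed the filter on low values. The cells came from dissociated embryos kept overnight in culture, and every animal carried the integrated reporter wzIs113[Pgcy-9::GFP], in which the gcy-9 promoter drives green fluorescent protein in the BAG neurons, paired head cells that sense CO2 and oxygen. The labels call that reporter independent of pmk-3 and describe the sorted fluorescent cells as mostly, not wholly, GFP positive. The 3 groups of 2 libraries are non-fluorescent cells of the wild-type reporter strain (non-BAG), fluorescent cells of the same strain (wild-type BAG), and fluorescent cells of the strain that also carries pmk-3(wz31), a mutation in a p38 MAP kinase gene (mutant BAG). Non-BAG cells are a mixture of the other embryonic cell types and not a matched neuron, and mutant non-BAG cells were not analysed here.

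Wnts are secreted, lipid-modified glycoproteins that give cells position and polarity along the body axis. They bind Frizzled receptors, which act through Dishevelled on beta-catenin and TCF or on the cytoskeleton, and they also bind the receptor tyrosine kinase Ror (CAM-1) and the Ryk-type receptor LIN-18. In the worm most Wnts are made toward the posterior, and the pathway is known for steering neuroblast migration, neuronal polarity, axon growth and asymmetric cell division.

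The recovered totals ran from 6181113 to 8596169 reads per library, of which the 10 members together took 1048 to 1877 CPM (reads scaled to the library total). Levels are normalized read counts as deposited. Differences are log2 changes ± SE from limma on log2(value + 1), with the 95% interval where given, and p-values are limma's Benjamini-Hochberg adjusted p over all 14211 genes tested, with 0.05 as the threshold. All 8 fixed BAG identity markers rose in both BAG groups, with gcy-9 itself the gene of the sorting gate, and all 8 pan-neuronal markers rose with them. The pmk-3 transcript stood at 259.8 and 284 in the mutant libraries, under the 404 to 671 of the other 4 libraries, a difference from wild-type BAG that did not pass (-1.20 ± 0.28, adjusted p = 0.0784), but passed with DESeq2 and without non-BAG replicate 1 or 2 (adjusted p = 0.0329 and 0.0317). The design text calls the replicates biological without naming separate cultures, so the tests rest on the spread within each pair of libraries, which may be technical.

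Most ligand genes had fewer transcripts in BAG neurons than in the other cells. For egl-20, the ligand known for directing the migration of the Q neuroblast descendants from the tail, the non-BAG libraries held 135 and 104.1, the wild-type BAG libraries 18.3 and 19.4, and the mutant BAG libraries 33.4 and 39.1. The 3 groups did not overlap, with non-BAG highest and wild-type BAG lowest. The share of all genes with that order was not counted. Mutant BAG lay above wild-type BAG without overlap for 26% of all genes tested. The fall in wild-type BAG was -2.59 ± 0.41 (adjusted p = 0.00275). In reads this was 125 and 168 in non-BAG against 20 and 27 in wild-type BAG, with 31 and 34 in mutant BAG. Exact Poisson 95% intervals overlapped between wild-type BAG replicate 2 (17.8 to 39.3 reads) and mutant BAG replicate 1 (21.1 to 44.0). The mutant against wild-type BAG value of 0.91 ± 0.41 did not pass (adjusted p = 0.322). So egl-20 was close to the lower end of what these libraries resolve.

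For mom-2, the ligand that the P2 blastomere uses to polarize its neighbour in the early embryo, non-BAG libraries had 548 and 239, wild-type BAG 80.4 and 38.8, and mutant BAG 113 and 103. The lowest non-BAG library was above every BAG library, while the non-BAG libraries themselves differed 2.29-fold. The fall in wild-type BAG was -2.67 ± 0.47 (adjusted p = 0.00485).

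The level of cwn-1, a Wnt that acts with egl-20 and cwn-2 in neuronal migration, was 337 and 351 in non-BAG, 96.8 and 79.0 in wild-type BAG and 85.2 and 118 in mutant BAG. The non-BAG replicates were 1.04-fold apart, the closest of any member in that group, and the BAG groups overlapped each other well under them. The fall in wild-type BAG was -1.96 ± 0.32 (adjusted p = 0.0033).

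The gene cwn-2, known for the placement of the nerve ring and for anterior migrations, kept more of its level. It stood at 481 and 299 in non-BAG, 267 and 275 in wild-type BAG and 219 and 206 in mutant BAG. The groups did not overlap, but the differences were small: -0.48 ± 0.31 in wild-type BAG (interval -1.18 to 0.21, adjusted p = 0.349) and -0.83 ± 0.31 in mutant BAG against non-BAG (adjusted p = 0.076). The latter passed without non-BAG replicate 2 (-1.18, adjusted p = 0.0244).

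The gene lin-44, the ligand made by tail hypodermis that orients asymmetric division, was the most variable member. It stood at 102 and 215 in non-BAG, 21.9 and 94.8 in wild-type BAG and 29.1 and 10.3 in mutant BAG. Each BAG library was under both non-BAG libraries, but the wild-type BAG replicates were 4.32-fold apart, and the value against non-BAG, -1.67 ± 0.73, did not pass (adjusted p = 0.172). Counting error alone does not cover that gap, since the 24 and 132 reads have exact Poisson 95% intervals of 15.4 to 35.7 and 110 to 157 reads, which cover counting error only. The 8 fixed hypodermis markers summed to 2517 and 1891 in non-BAG, 913 and 2425 in wild-type BAG and 1601.9 and 1546 in mutant BAG. So their sums differed between replicates in the direction of lin-44 in wild-type BAG and in the opposite direction in non-BAG. In non-BAG nhr-25 (1241 and 807) and lin-26 (825 and 517) were lower in replicate 2, as were dpy-7, rol-6, bli-1 and elt-3. There elt-1 (310 and 365) and lin-29 (11.9 and 140) were higher in replicate 2, as lin-44 was. Of the wild-type BAG difference most was elt-1 (240.3 and 1175) and nhr-25 (234.8 and 636), while bli-1 and elt-3 were lower in replicate 2. Their part in the lin-44 value was not tested.

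**Figure D1:**
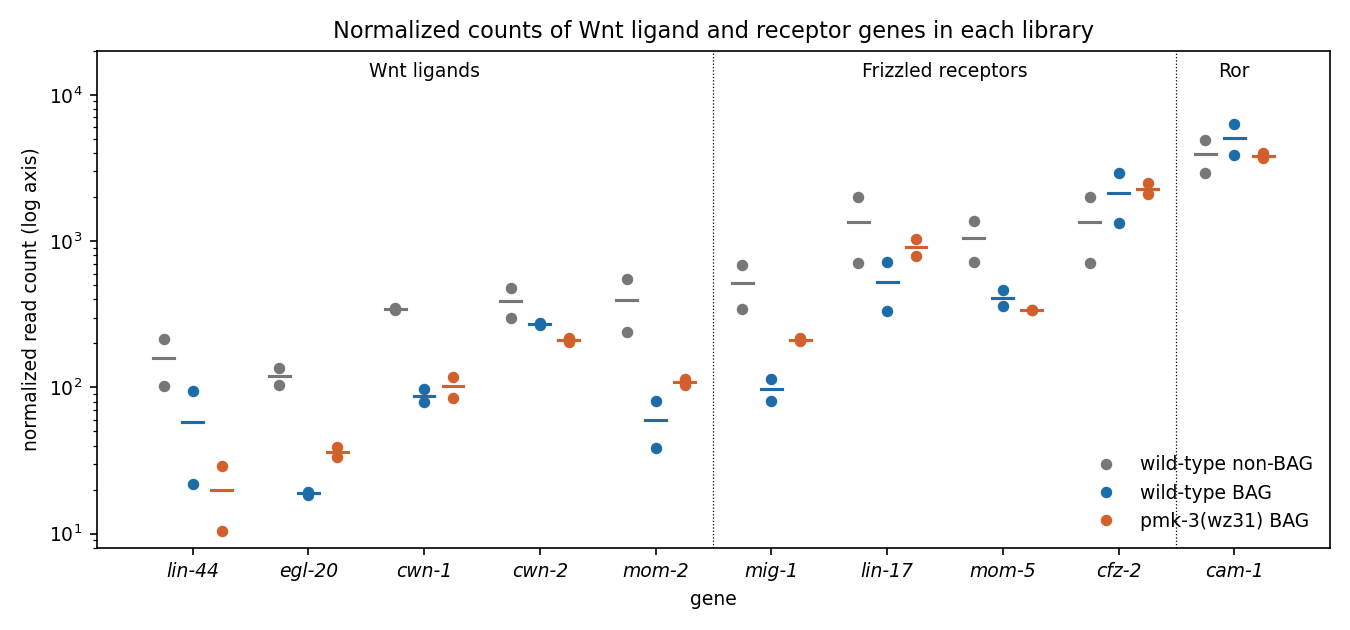
Normalized read counts (log axis) of the 5 ligand, 4 Frizzled and 1 Ror genes in each of the 6 libraries, with points for libraries and short bars for the mean of the 2 libraries of a group. Points of cwn-1 lie at 337 and 351 in non-BAG cells and at 118 or lower in every BAG library, while cam-1 lies at 2930.4 or above in every library.

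Of the 5 ligands, 3 fell in wild-type BAG against non-BAG and 0 rose. Over all 10 members 5 fell and 0 rose, against a background of 4.01% of all genes tested that fell and 10.2% that rose (14.2% in either direction). Both wild-type BAG libraries lay below both non-BAG libraries for 7 members, beside 25.2% of all genes tested, and above them for 0, beside 28.4%. The median change of the ligands was -1.96, beside -0.04 for all genes tested. In these bulk samples fewer cells of a type and less RNA per cell cannot be told apart.

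Expressed per kilobase of summed exon length, which allows genes to be compared, the 5 ligands together stood at 1029 and 776 in non-BAG, 320.3 and 342 in wild-type BAG and 314 and 307 in mutant BAG. The 4 BAG libraries were close to each other and under both non-BAG libraries. The same order held in CPM, which does not use the authors' scaling, at 239 and 229 in non-BAG against 64.3 to 82.1 in the BAG libraries. The share of cwn-2 in the ligand total per kilobase was 32.7% and 27.0% in non-BAG, 58.4% and 56.3% in wild-type BAG and 48.8% and 47.0% in mutant BAG. Per kilobase cwn-2 was the leading ligand transcript in each of the 4 BAG libraries.

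The 4 Frizzled genes did not move together, with 2 that fell in wild-type BAG and 2 that did not pass. The receptor gene mig-1, which acts in migration of the HSN neuron and the Q lineage, stood at 684 and 342 in non-BAG, 113 and 81.2 in wild-type BAG and 206 and 216 in mutant BAG. The 3 groups did not overlap, in the same order as for egl-20. The fall in wild-type BAG was -2.32 ± 0.38 (adjusted p = 0.00311).

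The gene mom-5, a receptor in the early blastomere signal from mom-2, stood at 1377 and 720.4 in non-BAG, 460.5 and 359 in wild-type BAG and 337 and 337 in mutant BAG. Both BAG groups lay under both non-BAG libraries. Its fall in wild-type BAG, -1.29 ± 0.34, passed (adjusted p = 0.032). The call did not hold on leaving out non-BAG replicate 1 (-0.82, adjusted p = 0.133), either wild-type BAG library (adjusted p = 0.0674 and 0.14) or either mutant library (adjusted p = 0.0833 and 0.0838). Its exons share 66 bases (2.66% of their length) with tsp-7 on the other strand, which has 25.9% of its level. No use of strand is stated, so the level is uncertain for the reads that touch these bases.

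The gene lin-17, the receptor for lin-44 in tail cell polarity, stood at 1997 and 709 in non-BAG, 719 and 335 in wild-type BAG and 793 and 1033 in mutant BAG. Every group overlapped non-BAG, whose replicates were 2.82-fold apart. The value in wild-type BAG, -1.28 ± 0.50, did not pass (adjusted p = 0.127), but passed without non-BAG replicate 2 (-2.02, adjusted p = 0.0106) and with DESeq2 (-1.37, adjusted p = 0.0269), and stood at -0.53 without non-BAG replicate 1.

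The gene cfz-2, a Frizzled known for anterior cell migrations, stood at 1999 and 703 in non-BAG, 2924 and 1327 in wild-type BAG and 2479 and 2089 in mutant BAG. Wild-type BAG overlapped non-BAG, and the value of 0.73 ± 0.50 did not pass (interval -0.39 to 1.85, adjusted p = 0.383). Mutant BAG lay above both non-BAG libraries, with a value of 0.94 ± 0.50 that did not pass (adjusted p = 0.194) and that passed without non-BAG replicate 1 (1.69, adjusted p = 0.0171).

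The shares of the Frizzled genes in their total are given as a description, with no test. Per kilobase, cfz-2 made up 34.4% and 29.8% of the 4 Frizzled genes in non-BAG, 71.1% and 65.2% in wild-type BAG and 66.3% and 58.2% in mutant BAG. The 4 BAG libraries were all above both non-BAG libraries, and the share moved little between replicates whose absolute levels differed more than 2-fold. The share of mig-1 was 13.4% and 16.4% in non-BAG, 3.12% and 4.53% in wild-type BAG and 6.24% and 6.83% in mutant BAG. That of lin-17 was 32.4% and 28.3%, then 16.5% and 15.5%, then 19.96% and 27.1% in the same groups, and that of mom-5 was 19.8% and 25.5%, then 9.35% and 14.8%, then 7.54% and 7.85%. Summed over the 4 genes, the Frizzled level per kilobase was 2798 and 1137 in non-BAG, 1983 and 980.2 in wild-type BAG and 1803 and 1729 in mutant BAG, so the group totals overlapped.

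**Figure D2:**
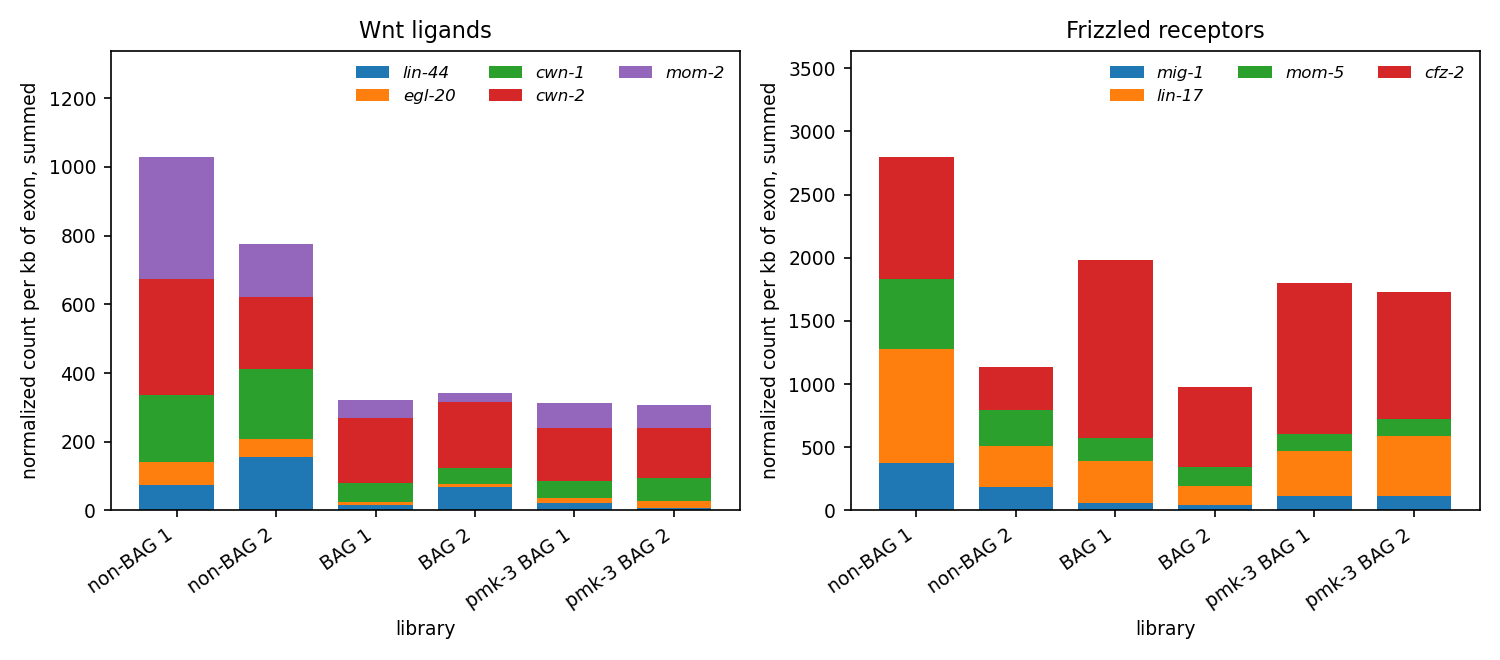
Normalized read count per kilobase of exon in each library, summed over the 5 ligand genes (left) and the 4 Frizzled genes (right), with each gene as one colour. Ligand totals are 307 to 342 in the 4 BAG libraries against 776 and 1029 in non-BAG, while Frizzled totals overlap and cfz-2 takes 58.2% to 71.1% of them in BAG against 29.8% and 34.4% in non-BAG.

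The Ror-type gene cam-1, which acts in neuronal migration and can also bind and limit Wnts outside the cell, was the most abundant member per kilobase in all 3 groups. Its normalized counts were 4907 and 2930.4 in non-BAG, 6315 and 3863 in wild-type BAG and 4004 and 3679 in mutant BAG. All groups overlapped. The values were 0.38 ± 0.34 in wild-type BAG (interval -0.39 to 1.15, adjusted p = 0.52) and 0.02 ± 0.34 in mutant BAG against non-BAG (interval -0.76 to 0.79, adjusted p = 0.976).

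The sorted fluorescent cells were mostly, not wholly, GFP positive, and the part of other cells in the levels ranked here was not tested. Ranked by mean level per kilobase in wild-type BAG, cam-1 (1532 ± 522, SD, n = 2) and cfz-2 (1024 ± 545) led, and their libraries overlapped. They were followed by lin-17 (239 ± 123), cwn-2 (189.9 ± 4.11) and mom-5 (165 ± 28.9), then mig-1 (53.2 ± 12.4), cwn-1 (50.9 ± 7.31), lin-44 (42.4 ± 37.4) and mom-2 (38.8 ± 19.1), with egl-20 last (9.33 ± 0.392). Of neighbours in that order, lin-17 did not overlap cfz-2, mom-5 did not overlap cwn-2, mig-1 did not overlap mom-5 and egl-20 did not overlap mom-2. In non-BAG cells the first 2 places were the same (cam-1 1180 ± 421 and cfz-2 651 ± 442), but lin-17 (614 ± 413) and mom-5 (422 ± 187) overlapped the genes ranked next to them. Of neighbours in the non-BAG order, lin-44 (115 ± 58.1) did not overlap cwn-1 (199 ± 5.77) and egl-20 (59.3 ± 10.9) did not overlap lin-44, and the other neighbours overlapped. In mutant BAG the order began with cam-1 (1157 ± 69.2), cfz-2 (1101 ± 133), lin-17 (414 ± 76.8), cwn-2 (148.8 ± 6.44) and mom-5 (135.8 ± 0.135). There cfz-2 overlapped cam-1, and lin-44 (14.3 ± 9.62), last by its mean, overlapped egl-20 (18.0 ± 1.99).

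In the comparison of mutant BAG with non-BAG, which shares the non-BAG libraries with the first, 6 members fell and 0 rose, against a background of 9.34% of genes tested that fell and 16.2% that rose (25.5% in either direction). Both mutant libraries lay below both non-BAG libraries for 7 members, beside 34% of all genes tested, and above them for 1, cfz-2, beside 32.1%. The 6 that fell were egl-20 (-1.69 ± 0.41), cwn-1 (-1.76 ± 0.32), mom-2 (-1.73 ± 0.47), lin-44 (-3.01 ± 0.73), mig-1 (-1.19 ± 0.38) and mom-5 (-1.56 ± 0.34), with adjusted p between 0.0037 and 0.0438. The median was -1.38 over the 10 members and -0.09 over all genes tested. These calls were less stable than those in wild-type BAG: 1 remained without mutant BAG replicate 1 (lin-44), 1 without mutant BAG replicate 2 (cwn-1), and 3 of them without non-BAG replicate 1 (cwn-1, lin-44 and mom-5). The value of lin-44 was lost without non-BAG replicate 2 (adjusted p = 0.0676), and under TMM scaling mig-1 was lost (-1.11, adjusted p = 0.0563). Without non-BAG replicate 1 mig-1 stood at -0.69 (adjusted p = 0.211), mom-2 at -1.14 (adjusted p = 0.124) and egl-20 at -1.50 (adjusted p = 0.0723). The wild-type BAG calls of egl-20, cwn-1, mom-2 and mig-1 held with each of the 6 libraries left out.

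**Figure D3:**
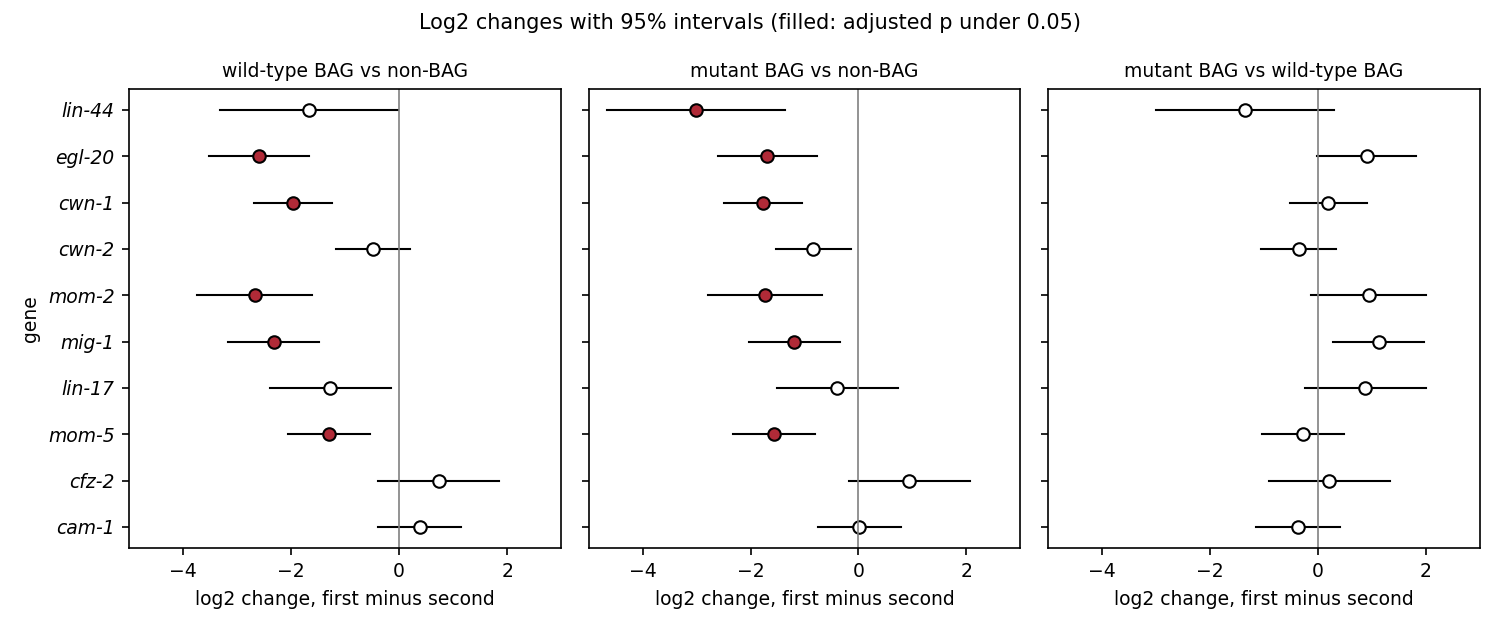
Log2 change (horizontal axis) of each member in the 3 comparisons, with the 95% interval as a line, filled points for adjusted p under 0.05 and open points otherwise. Filled points are 5 of 10 in wild-type BAG against non-BAG, 6 of 10 in mutant BAG against non-BAG and 0 of 10 in mutant against wild-type BAG.

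Whether the pmk-3 mutation goes with a different Wnt profile is addressed by mutant against wild-type BAG neurons. No member passed: limma, edgeR and DESeq2 each called 0 of 10, against a background of 0.837% of all genes tested by limma. By the unadjusted limma p 1 of 10 members, mig-1, was under 0.05 (1.13 ± 0.38, interval 0.29 to 1.97, adjusted p = 0.188), beside 15.9% of all genes tested. Both mutant libraries lay above both wild-type BAG libraries for mig-1, egl-20 (0.91 ± 0.41), mom-2 (0.94 ± 0.47) and lin-17 (0.88 ± 0.50), with adjusted p between 0.188 and 0.423. That is 4 of 10 members, beside 26% of all genes tested. They lay below for cwn-2 (-0.35 ± 0.31) and mom-5 (-0.27 ± 0.34), 2 of 10 members beside 24.3% of all genes. The intervals included 0 for mom-2 (-0.12 to 2.00), lin-17 (-0.24 to 2.00), lin-44 (-2.99 to 0.31) and cfz-2 (-0.91 to 1.33). That of egl-20 (-0.01 to 1.83) included 0 only at its lower end. Those of cwn-1, cwn-2, mom-5 and cam-1 lay between -1.14 and 0.92. Over all genes tested 69 rose (0.486%) and 50 fell (0.352%). Under TMM scaling 94 rose and 43 fell, with the median of all genes moved by 0.11, and each member kept its direction.

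Among markers of other cells, those of body wall muscle and of dividing cells had the most calls. Of the 8 body wall muscle markers, 7 fell and 1 rose in each BAG group against non-BAG. The myosin gene unc-54 was the one that rose, and the other 7 summed to 15514 and 11913 in non-BAG and to 3692 to 4075 in the 4 BAG libraries, with none of the 8 at 0. Of the 8 markers of dividing cells, 6 fell in wild-type BAG and 7 in mutant BAG, from a summed 3734 to 6056 in non-BAG to 1786 to 1913 and 1367 to 1609, with none at 0. Hypodermis markers had 0 calls of 7 tested by limma in either BAG group, with 1 at an unadjusted p under 0.05 in each. Of all 14211 genes tested, 4019 in wild-type BAG and 5518 in mutant BAG had such a p. They summed to 1891 to 2517 in non-BAG, 913 to 2425 in wild-type BAG and 1546 to 1601.9 in mutant BAG, with rol-6 at 0 in mutant BAG replicate 2. Intestine markers were scarce in all libraries (a summed 44.8 to 135), and elt-2, elt-7 or ges-1 was at 0 in each BAG library. They had 0 calls of 4 tested in either BAG group, also 0 at an unadjusted limma p under 0.05. Pharynx markers (1 rise in each BAG group) summed to 6676 and 2394 in non-BAG, 6695 and 2836 in wild-type BAG and 6217 and 6218 in mutant BAG. Replicate 1 had the higher sum in the first 2 groups, as for lin-17 and cfz-2. Of that difference most was pha-4 (4090 and 1115 in non-BAG, 5023 and 1174 in wild-type BAG), with eya-1, ceh-34 and ceh-22 in its direction. In both groups myo-2, myo-1, tnc-2 and tni-4 were instead lower in replicate 1. Glia markers (1 rise and 1 fall in wild-type BAG, 1 rise in mutant BAG) summed to 1931 to 3287 in non-BAG, 6069 to 7162 in wild-type BAG and 7194 to 7940.4 in mutant BAG, with mir-228 at 0 in both non-BAG libraries. Of the BAG sums most was vab-3 (1635 and 909 in non-BAG, 6333 and 5284 in wild-type BAG, 6092 and 6807 in mutant BAG). Of the 7 glia markers tested, 5 had a change under 0 in wild-type BAG (median -0.60) and 3 in mutant BAG (median 0.003). Germline markers had 0 calls of 7 tested in wild-type BAG, also 0 at an unadjusted limma p under 0.05, and 1 fall in mutant BAG, with nos-2 at 0 in the 4 BAG libraries. The part of these cells in the falls of the ligand and receptor genes, or in the replicate differences, was not tested.

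The other genes of the pathway, a fixed list of 41, all tested, gave 2 rises and 8 falls in wild-type BAG and 4 rises and 7 falls in mutant BAG against non-BAG. These counts stand beside backgrounds of 10.2% and 4.01%, and of 16.2% and 9.34%, of all genes tested. Median changes were -0.39 and -0.49, beside -0.04 and -0.09 over all genes. Calls in wild-type BAG that held with each library left out were sfrp-1, mab-5 and lin-39, and in mutant BAG lin-18 and sfrp-1. The other 7 and 9 calls were lost without at least 1 library. The total in wild-type BAG was 10 and fell to 4 without wild-type BAG replicate 2 and to 6 without non-BAG replicate 1. Without non-BAG replicate 2 it was 14, with bar-1, wrm-1, pop-1, prkl-1 and ceh-10 added as lower and mtm-9 lost. The total in mutant BAG was 11 and fell to 4, 2 and 7 without mutant BAG replicate 1, mutant BAG replicate 2 and non-BAG replicate 1.

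Among other receptors and extracellular regulators, lin-18, the Ryk-type Wnt receptor, went the opposite way to mig-1 and mom-5. It stood at 129 and 166 in non-BAG, 362 and 538 in wild-type BAG and 953 and 1173 in mutant BAG. The 3 groups did not overlap, and it rose by 1.59 ± 0.30 in wild-type BAG (adjusted p = 0.00738, and 0.0555 on leaving out the second wild-type BAG library) and by 2.85 ± 0.30 in mutant BAG (adjusted p = 0.000176). Its value in mutant against wild-type BAG, 1.26 ± 0.30, did not pass (adjusted p = 0.0887), but passed without non-BAG replicate 1 or 2 (adjusted p = 0.0433 and 0.0405). Its exons share 84 bases (4.46% of their length) with C16B8.2 on the other strand, which has 11.3% of its level. So the level is uncertain for the reads that touch these bases.

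The secreted Frizzled-related inhibitor gene sfrp-1 stood at 234 and 171 in non-BAG, 31.1 and 25.1 in wild-type BAG and 31.3 and 17.2 in mutant BAG. All BAG libraries were under both non-BAG libraries, with falls of -2.80 ± 0.44 (adjusted p = 0.00273) and -3.05 ± 0.44 (adjusted p = 0.00104). The gene plr-1, a transmembrane ubiquitin ligase that removes Wnt receptors from the cell surface, fell in wild-type BAG (-1.60 ± 0.33, adjusted p = 0.0116). That call did not hold on leaving out the first non-BAG or the second wild-type BAG library (adjusted p = 0.0514 and 0.0708). Its mutant BAG value of -0.76 did not pass (adjusted p = 0.127), and it was -1.14 on leaving out the second non-BAG library, which passed (adjusted p = 0.0385).

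In the secretion list, mig-14, the Wntless carrier that Wnt-producing cells need for release, stood at 316 and 192 in non-BAG, 95.02 and 65.4 in wild-type BAG and 110 and 114 in mutant BAG. It fell by 1.63 on the log2 scale in wild-type BAG (SE 0.36, adjusted p = 0.0159) and by 1.13 in mutant BAG (adjusted p = 0.0474), calls lost without non-BAG replicate 1 (adjusted p = 0.0787 and 0.206). The first was also lost on leaving out the second wild-type BAG library (adjusted p = 0.0902), and the second on leaving out the first wild-type BAG library or either mutant library (adjusted p = 0.0504, 0.191 and 0.188). The retromer genes vps-26, vps-29 and vps-35, which recycle that carrier, had values of -0.25, 0.62 and 0.27 in wild-type BAG, none past the threshold. The myotubularin gene mtm-9 rose in both BAG groups (1.56 ± 0.36 and 1.33 ± 0.36) and its partner mtm-6 in mutant BAG (1.03 ± 0.28). The mtm-9 calls did not hold on leaving out non-BAG replicate 2 or either library of the BAG group compared, nor did the mtm-6 call on leaving out non-BAG replicate 1 or either mutant library. Both genes share exon bases with neighbours on the other strand (0.65% of the exon length of mtm-9 and 1.78% of that of mtm-6). So their levels are uncertain for the reads that touch these bases.

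**Figure D4:**
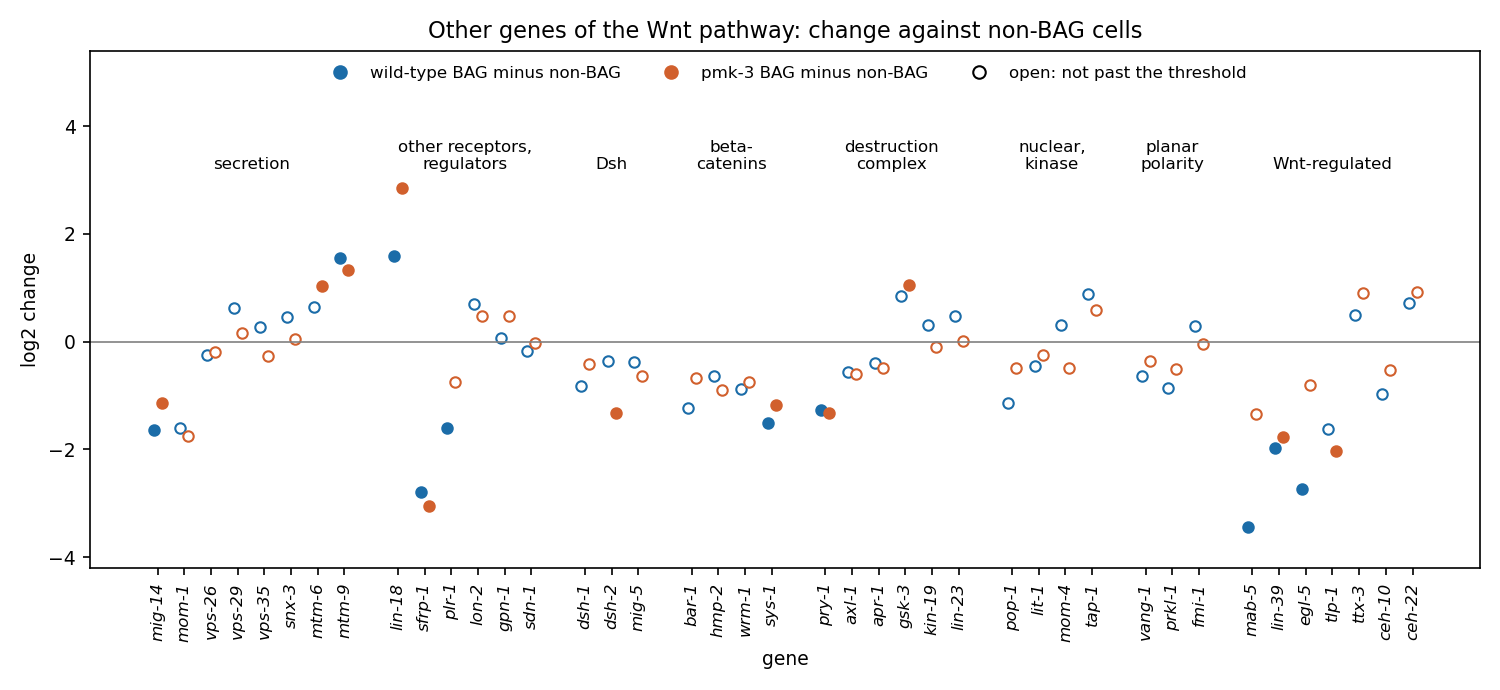
Log2 change against non-BAG cells (vertical axis) of the 41 other pathway genes, grouped by role, in wild-type BAG and mutant BAG neurons; filled points passed the threshold. The Ryk gene lin-18 lies at 1.59 and 2.85, sfrp-1 at -2.80 and -3.05 and mab-5 at -3.44 and -1.34.

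Inside the cell most components did not pass. The beta-catenin gene sys-1 fell in both BAG groups (-1.50 ± 0.35 and -1.18 ± 0.35), as did pry-1, the Axin scaffold of beta-catenin destruction (-1.27 ± 0.35 and -1.32 ± 0.35). The sys-1 and pry-1 calls in both groups did not hold on leaving out non-BAG replicate 1 or either mutant library. In wild-type BAG they were also lost on leaving out the second library of that group, and pry-1 on leaving out the first. The Dishevelled gene dsh-2 fell in mutant BAG alone by the threshold (-1.33 ± 0.29, against -0.37 ± 0.29 in wild-type BAG), and its mutant against wild-type value, -0.96 ± 0.29, did not pass (adjusted p = 0.147). The kinase gene gsk-3 rose in mutant BAG (1.05 ± 0.28, adjusted p = 0.0223), with 0.85 ± 0.28 in wild-type BAG, which did not pass (adjusted p = 0.0744), and with 1.12 on leaving out non-BAG replicate 1, which did (adjusted p = 0.0257). The dsh-2 and gsk-3 calls were lost without mutant BAG replicate 1 (adjusted p = 0.0856 and 0.104) or 2 (adjusted p = 0.0686 and 0.192), and that of gsk-3 also without non-BAG replicate 2 (adjusted p = 0.0692). In the nuclear and kinase arm the gene with the highest mean count, the Nemo-like kinase lit-1, had -0.45 and -0.25, and of planar polarity the cadherin gene fmi-1 had 0.29 and -0.04, with 0 of 4 and 0 of 3 genes past the threshold. By unadjusted limma p under 0.05 these were 1 and 1 in wild-type BAG and 0 and 0 in mutant BAG. Over all 14211 genes tested, 4019 in wild-type BAG and 5518 in mutant BAG had such a p. Of the genes of these lists, edgeR called 0 and DESeq2 called 1, pop-1 in wild-type BAG. Without non-BAG replicate 2 the TCF gene pop-1 and the Prickle gene prkl-1 passed as lower in wild-type BAG (adjusted p = 0.010 and 0.0267).

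Of 7 genes known to be regulated by Wnt signalling elsewhere in the worm, 3 fell in wild-type BAG and 2 in mutant BAG, and 0 rose in either. Of all genes tested 4.01% and 9.34% fell and 10.2% and 16.2% rose. The Hox gene mab-5, the egl-20 target of the migrating Q lineage, stood at 142 and 99.2 in non-BAG, 8.22 and 12.2 in wild-type BAG and 44.2 and 48.3 in mutant BAG. The 3 groups did not overlap, in the order of egl-20 and mig-1, whose share over all genes was not counted. It fell in wild-type BAG (-3.44 ± 0.45, adjusted p = 0.000841), where it had 9 and 17 reads. Its values in mutant BAG, -1.34 against non-BAG (adjusted p = 0.053) and 2.10 ± 0.45 against wild-type BAG (adjusted p = 0.0682), did not pass. The first passed under 5 of 15 alternatives, edgeR and DESeq2 among them. The second passed with DESeq2 and without non-BAG replicate 1 or 2 (adjusted p = 0.0465 and 0.0401).

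The Hox gene lin-39 stood at 263 and 314 in non-BAG, 63.0 and 84.0 in wild-type BAG and 103 and 67.8 in mutant BAG. It fell in both BAG groups (-1.97 ± 0.35 and -1.77 ± 0.35), the mutant call being lost without mutant BAG replicate 2 (adjusted p = 0.0794). The Hox gene egl-5 stood at 83.4 and 70.7 in non-BAG, 4.57 and 23.7 in wild-type BAG and 35.6 and 52.9 in mutant BAG. Its wild-type BAG replicates, with 5 and 33 reads, were 5.19-fold apart. It fell in wild-type BAG (-2.73 ± 0.67, adjusted p = 0.0244). That call did not hold on leaving out the first non-BAG library, the first wild-type BAG library or either mutant library (adjusted p = 0.0833, 0.104, 0.0556 and 0.0583). The zinc finger gene tlp-1 fell in mutant BAG (-2.03 ± 0.52, adjusted p = 0.0194), lost without non-BAG replicate 1 and mutant BAG replicate 2 (adjusted p = 0.0737 and 0.172), and its wild-type BAG value of -1.63 did not pass (adjusted p = 0.07), but passed with DESeq2 and without either mutant library (adjusted p = 0.0473 and 0.0466). Against wild-type BAG neurons, mutant neurons had 0 of 41 pathway genes past the threshold by limma and by edgeR and 2 by DESeq2 (lin-18 and mab-5, both higher), with 6 at an unadjusted limma p under 0.05. Over all genes tested DESeq2 called 4.85% and 15.9% had such an unadjusted p, so these counts are near the background.

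Profiles over the 6 libraries were also compared with those of 5819 other protein-coding or named genes with a mean of at least 100, for the 8 members at or above that mean. The measure was the distance between log2 profiles centred on their own means. Closest to mig-1 was cutl-9 (0.16), a cuticlin-like gene, to lin-17 the caveolin gene cav-1 (0.22), to mom-5 the spindle checkpoint gene bub-3 (0.19) and to cfz-2 Y34B4A.8 (0.34). Closest to cam-1 was mau-8 (0.15), to cwn-1 the transthyretin-related gene ttr-6 (0.34), to cwn-2 sqd-1 (0.16) and to mom-2 the caudal-type homeobox gene pal-1 (0.43). The second closest were F21C10.7, flh-3, K02F3.12, C34F6.5, pxf-1, K01A2.3, Y65A5A.1 and egl-15 for mig-1, lin-17, mom-5, cfz-2, cam-1, cwn-1, cwn-2 and mom-2, at distances of 0.17 to 0.51. These are descriptions of 6 libraries that fall into 3 groups and share their depth and sorting.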

How the data were processed

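RNA of sorted cells was sequenced as paired-end reads, per the labels' protocols. The authors deposited 1 table of normalized read counts, a signal per gene and library. STAR, HTSeq and DESeq2 are named in the submitters' processing notes. Their versions and roles, the genome build, the annotation and the use of strand: not given in the sources used here. Each deposited signal value was a whole multiple of 1 read's value (100% whole within 0.01 read), so reads were recovered. Replicates differed beyond sampling noise (chi-square per degree of freedom 47.6 for non-BAG, 32.4 for wild-type BAG, 10.9 for mutant BAG).

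The filter kept genes reaching 10 in 2 or more libraries, and the test was limma 3.58.1 (R 4.3.3), trend on log2(value + 1), 3 groups in 1 fit, 3 residual degrees of freedom, no replicate block, two-sided. Changes on this scale understate those of low genes. Alternatives were other pseudocounts (0.5, 8), filters (none, a mean of 50) and TMM scaling, the replicate block, only the groups compared, edgeR 4.0.16 and DESeq2 1.42.0 on recovered reads, and each library left out. A group left with 1 library was assumed to vary like the others. Exon lengths and overlaps came from the WBcel235 Ensembl annotation, which may differ from the authors'. The limma and edgeR fits were run on simulated counts with a fixed dispersion, for mutant against wild-type BAG only. That run checks the scripts and not the calls reported here. Members and lists were chosen with earlier results of these data known. All members are named, with list genes past the threshold or otherwise the most abundant of each sub-list, plus the 2 closest profiles of each member with a mean of at least 100. The marker lists share ceh-22 with the pathway list and lin-26 with each other.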

Additional observations from a re-analysis of the deposited data

How the results depend on the processing

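In wild-type BAG against non-BAG the members called numbered 4 to 6 over 15 alternatives, 6 of them with a library left out; egl-20, cwn-1, mom-2 and mig-1 passed in all 15. In mutant against wild-type BAG 0 passed in all 15. In mutant BAG against non-BAG 1 to 6 passed with a library left out and 5 to 8 otherwise. For the 41 pathway genes, calls in wild-type BAG (10) were 4 to 14 with a library left out and 5 with only the groups compared. Calls in mutant against wild-type BAG (0) were 0 to 2 with a library left out, 1 with only the groups compared and 2 with DESeq2, and calls in mutant BAG against non-BAG (11) were 2 to 12 with a library left out.

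Replicate numbers were not taken as pairing, since the labels name none. Deviations of equal numbers correlated at 0.46 between non-BAG and wild-type BAG, which come from the same strain. They correlated at 0.004 and 0.046 with mutant BAG, which comes from another strain. The latter values do not bear on whether equal numbers of the wild-type strain share a sort or culture, which was not tested. With the replicate block, pathway calls were 16, 2 and 14 and member calls 6, 0 and 8 (wild-type BAG against non-BAG, mutant against wild-type BAG, mutant BAG against non-BAG), the added members being lin-17 and then cfz-2 and cwn-2.

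Directions turned for uncalled values. With a library left out, cfz-2 in wild-type BAG ranged from -0.021 (non-BAG replicate 2 left out) to 1.49, cfz-2 in mutant against wild-type BAG from -0.36 (wild-type BAG replicate 2) to 0.78 and cwn-1 there from -0.038 (mutant BAG replicate 2) to 0.43. In mutant BAG against non-BAG lin-17 ranged from -1.14 to 0.35 (non-BAG replicate 1) and cam-1 from -0.35 (non-BAG replicate 2) to 0.39, and cam-1 was -0.0075 with DESeq2. The cause was not tested. Calls over all genes in mutant against wild-type BAG were 119, and 685 with the replicate block, 689 with DESeq2, 656 with only the groups compared, 221 with a pseudocount of 8 and 0 to 520 with a library left out; those in wild-type BAG (2014) were 1261 with only the groups compared and 1211 to 2190 with a library left out, and those in mutant BAG against non-BAG (3628) 1376 to 3730. Each group has 2 libraries, and lin-44 in BAG rests on 9 to 132 reads and egl-20 on 20 to 34. Of the list genes, mab-5 in wild-type BAG rests on 9 and 17 reads and egl-5 on 5 and 33.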
